A study of Mus musculus with 16 samples.

Results

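Ide encodes insulin-degrading enzyme, and the RNA described here is that of Ide and of 7 protein-coding genes that lie around it on mouse chromosome 19. The 8 genes, in map order, were Fgfbp3, Btaf1, Cpeb3, March5 (also named Marchf5), Ide, Kif11, Hhex and Exoc6, out of 48709 genes in the count table. They were taken as a fixed list of neighbours around Ide, and Ide had been picked because its RNA differed between the genotypes. The genotype values of these genes are therefore a description. Where calls of the fit over all genes are counted for them, the share of all genes called stands beside the count and nothing is supported with it. All 8 genes were matched by Ensembl identifier, and all 8 passed the filter on low counts in every comparison.

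The libraries came from 8 female C57BL/6J mice aged 3 to 6 months, 4 wild type (WT) and 4 in which Msra, Msrb1, Msrb2 and Msrb3 had been knocked out together (quadruple knockout, QKO). These genes encode the methionine sulfoxide reductases, which return oxidised methionine to methionine, and none of them lies on chromosome 19. Liver and heart were taken from the same untreated animals, which gave 16 libraries in 4 groups of 4 (WT liver, QKO liver, WT heart and QKO heart). The way the alleles were made and the breeding of the WT animals in relation to the QKO animals are not given in the sources used here.

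Insulin-degrading enzyme is a zinc metallopeptidase of the M16 family that closes around short peptides and cuts them, among them insulin, glucagon and amyloid beta. The liver removes much of the insulin that reaches it from the pancreas, by uptake through the insulin receptor and breakdown inside the cell. The neighbours of Ide have unrelated roles. Fgfbp3 encodes a secreted carrier of fibroblast growth factors, and Btaf1 an ATPase that takes the TATA-binding protein off DNA. Cpeb3 encodes a protein that binds mRNA and regulates its translation, and March5 a ubiquitin ligase of the outer mitochondrial membrane. Kif11 encodes a motor of the mitotic spindle, Hhex a homeobox transcription factor of liver, endothelium and blood progenitors, and Exoc6 a subunit of the exocyst, which tethers secretory vesicles to the plasma membrane.

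On assembly GRCm38 the stretch ran from the start of Fgfbp3 at 36917550 to the end of Exoc6 at 37684059, which is 766.5 kb. Fgfbp3 (36917550 to 36919615, minus strand) and Btaf1 (36926079 to 37012752, plus strand) start from neighbouring ends, with 6463 bases between the genes. Cpeb3 (37021291 to 37208601, minus) and March5 (37207543 to 37222151, plus) overlap by 1059 bases on opposite strands. The strand setting of the authors' counting is not given in the sources used here, so reads from that overlap cannot be told apart. Ide (37268743 to 37337852, minus) spans 69.1 kb and was followed by Kif11 (37376403 to 37421859, plus), Hhex (37434810 to 37440731, plus) and Exoc6 (37550418 to 37684059, plus). The gap to Ide was 256 kb for Btaf1, 46.6 kb for March5 and 38.6 kb for Kif11. The processed pseudogene Rpl10-ps6 lies inside Ide on the same strand, and the antisense model A330032B11Rik lies inside Cpeb3.

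The 250 bases before the RefSeq start of Fgfbp3 (chr19:36919600-36919849, minus strand), Btaf1 (chr19:36925829-36926078, plus strand) and Ide (chr19:37334545-37334794, minus strand) are shown because these are the 3 genes for which all QKO libraries lay below all WT libraries in heart (Fgfbp3, at low counts, in heart alone). They are read 5′ to 3′ on the strand of the gene, from RefSeq on GRCm38.p6, and capitals mark matches on either strand to the TATA box (TATAAA), to the box of the factor NF-Y (CCAAT), to the GC box bound by Sp1 (GGGCGG) and to the cyclic AMP response element (TGACGTCA).
Fgfbp3: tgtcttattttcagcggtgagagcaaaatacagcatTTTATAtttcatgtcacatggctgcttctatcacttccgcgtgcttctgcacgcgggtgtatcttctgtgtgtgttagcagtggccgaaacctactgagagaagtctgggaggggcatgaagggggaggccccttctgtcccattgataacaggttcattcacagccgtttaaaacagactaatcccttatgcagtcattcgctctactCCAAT
Btaf1: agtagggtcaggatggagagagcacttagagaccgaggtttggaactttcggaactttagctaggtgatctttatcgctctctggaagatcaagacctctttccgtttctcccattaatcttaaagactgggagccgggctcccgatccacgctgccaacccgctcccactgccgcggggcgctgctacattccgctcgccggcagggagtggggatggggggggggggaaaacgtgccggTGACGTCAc
Ide: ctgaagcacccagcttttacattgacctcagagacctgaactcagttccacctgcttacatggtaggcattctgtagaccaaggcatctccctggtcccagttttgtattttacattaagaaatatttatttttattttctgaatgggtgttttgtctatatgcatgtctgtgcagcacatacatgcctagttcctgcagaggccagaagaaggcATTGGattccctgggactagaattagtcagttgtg
No motif was found in all 3 sequences. The Fgfbp3 sequence held 1 TATAAA (read on the other strand) and 1 CCAAT at its 3′ end, with 8 CpG and 47.2% G and C. The Btaf1 sequence held 1 TGACGTCA, with 17 CpG and 58.4% G and C. The Ide sequence held 1 CCAAT on the other strand, with 0 CpG and 42.8% G and C. Among 32851 mouse sequences of the same kind, TATAAA was present in 12.4%, CCAAT in 33.8%, GGGCGG in 32.7% and TGACGTCA in 1.55%. These matches are letters in a window and not measured binding. RefSeq starts Ide at 37334544, whereas the outer end of the gene in GENCODE is 37337852. The Ide sequence shown therefore lies inside the gene as GENCODE places it. The start used in these tissues was not measured, so its CpG and motif counts may not be those of the promoter in use.

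Total counts were 37.9 M to 67.9 M per liver library and 42.1 M to 72.6 M per heart library. Counts in protein-coding genes were fewer in heart, at 9.21 M to 28.2 M per library, against 21.6 M to 40.7 M in liver. The share of counts at ribosomal RNA loci was 0.315 to 0.980% in liver but 0.245 to 56.9% in heart, with 7.37% in WT heart 4 and 0.245% in QKO heart 4. Levels are given as CPM, the count of a gene per 1 M counts, on library sizes scaled by TMM (trimmed mean of M-values), which allows for this difference in content. The summed hepatocyte markers were 27031 to 40488 CPM in liver and 46.5 to 295 in heart, and the summed cardiomyocyte markers 15764 to 19366 in heart and 8.09 to 35.2 in liver, so both tissue labels matched their markers. WT livers 3 and 4 also held 434 and 130 CPM of pancreatic acinar markers, against 3.01 to 6.15 in the other 6 livers. WT liver 4 held 146 CPM of skeletal muscle markers (0.396 to 10.9 in the other livers) and WT liver 3 held 86.1 CPM of B and plasma cell markers (5.41 to 10.4 in the others). Of the targeted genes, Msrb2 was nearly lost and Msrb1 RNA remained. Msrb2 had 4.46 ± 1.55 CPM (SD, n = 4) in WT liver and 0.0295 ± 0.0202 in QKO liver, whereas Msrb1 had 98.5 ± 10.9 and 75.6 ± 18.5. In heart, Msrb2 had 12.96 ± 1.15 CPM in WT and 0.161 ± 0.0493 in QKO, and Msrb1 15.2 ± 1.03 and 21.03 ± 2.11. Msra and Msrb3 means were lower in QKO libraries of both tissues. The deleted parts of the genes are not given in the sources used here, so RNA that remains is no check of a label.

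Ide RNA in QKO animals was at 43.4% of the WT level in liver and 48.8% in heart. In liver the 4 WT libraries had 63.2, 67.6, 77.9 and 52.6 CPM and the 4 QKO libraries 30.6, 29.2, 24.6 and 29.1. In heart the WT libraries had 70.6, 66.2, 63.2 and 59.5 CPM and the QKO libraries 32.2, 34.0, 29.8 and 30.5. No QKO library reached the lowest WT library in either tissue. The nearest libraries of the genotypes were 52.6 and 30.6 CPM in liver and 59.5 and 34.0 CPM in heart, and the WT livers were the most spread of the 4 groups. The group means were 65.3 ± 10.5 CPM (SD, n = 4) in WT liver and 28.4 ± 2.58 in QKO liver. In heart they were 64.9 ± 4.68 and 31.6 ± 1.90. The log2 change of QKO over WT was -1.21 in liver (standard error, SE, 0.15) and -1.04 in heart (SE 0.07). Ide rested on 19887 summed counts in WT liver and 8783 in QKO liver, and on 11590 and 5856 in heart. As background, a copy number variant that holds Ide and Fgfbp3 has been described among C57BL/6J mice. DNA was not measured in these animals, so its part in the values of Ide and Fgfbp3 was not tested.

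Btaf1, near the other end of the stretch from Exoc6, was lower in QKO libraries by a smaller step. In liver its WT libraries had 30.3, 31.9, 34.7 and 33.8 CPM and its QKO libraries 23.5, 25.6, 21.8 and 28.3. In heart the WT libraries had 24.3, 25.0, 26.3 and 27.4 CPM and the QKO libraries 16.5, 19.8, 19.8 and 18.99. As for Ide, the genotypes did not overlap in either tissue. QKO liver held 76.0% of the WT level (24.8 ± 2.81 against 32.6 ± 1.95 CPM, SD, n = 4) and QKO heart 72.8% (18.8 ± 1.57 against 25.8 ± 1.37). Its log2 change was -0.41 in liver (SE 0.13) and -0.46 in heart (SE 0.07).

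Fgfbp3, whose start lies next to that of Btaf1, was close to the limit of detection. In heart the WT libraries had 0.429, 0.788, 0.495 and 0.510 CPM, from 18, 19, 14 and 45 counts. The QKO hearts had 0.314, 0.317, 0.266 and 0.139 CPM, from 9, 11, 10 and 12 counts. All 4 QKO hearts lay below all 4 WT hearts, at 46.6% of the WT mean and a log2 change of -1.15 (SE 0.37). In liver the counts were 7, 25, 15 and 22 in WT and 10, 6, 14 and 4 in QKO libraries. The liver genotypes overlapped, with 0.229 ± 0.0926 CPM (SD, n = 4) in WT, 0.127 ± 0.101 in QKO and a log2 change of -0.94 (SE 0.55). That value moved to -1.55 without QKO liver 3 and to -0.64 without QKO liver 4.

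The other 5 genes overlapped between genotypes in both tissues, including March5 and Kif11, the nearest neighbours of Ide among the listed genes on either side. March5 had 29.6, 28.4, 27.9 and 25.6 CPM in WT livers and 28.4, 33.9, 30.4 and 30.1 in QKO livers (log2 change 0.13, SE 0.12 in liver and 0.02, SE 0.06 in heart). In heart it was the least variable of the listed genes, at 16.4 ± 0.748 CPM (SD, n = 4) in WT and 16.7 ± 0.410 in QKO libraries. Kif11 was low throughout, at 1.10 ± 0.372 and 1.09 ± 0.135 CPM in WT and QKO liver and 0.782 ± 0.239 and 0.874 ± 0.209 in heart. Cell division is rare in adult liver and heart. The summed markers of proliferating cells were 5.26 to 9.60 CPM in WT and 4.72 to 7.28 in QKO livers. In hearts they were 3.85 to 7.17 CPM in WT and 5.64 to 8.35 in QKO libraries. Cpeb3 had 4.17 ± 0.618 and 4.74 ± 0.672 CPM in WT and QKO liver and 39.0 ± 2.93 and 36.9 ± 5.77 in heart. Exoc6 had 12.9 ± 1.60 and 13.8 ± 1.13 CPM in liver and 18.1 ± 1.09 and 18.4 ± 1.36 in heart. The log2 changes of Cpeb3 were 0.17 and -0.08, and those of Exoc6 0.09 and 0.02, in liver and heart.

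Hhex was uneven among the WT livers. WT livers had 3.87, 4.64, 8.54 and 9.52 CPM and QKO livers 9.47, 8.50, 5.72 and 9.51. The WT livers lay apart in pairs, with livers 3 and 4, the libraries that held acinar, muscle or B cell markers, above livers 1 and 2. The log2 change of QKO over WT in liver was 0.31 (SE 0.28), and 0.97 without WT livers 3 and 4. With 1 WT liver left out it ran from 0.12 (without liver 1) to 0.53 (without liver 4). In the labels, animals 1 and 2 of each genotype carry numbers that begin with 47 and animals 3 and 4 numbers that begin with 48. QKO livers held 211% of the WT level of Hhex within the first of these series and 84.3% within the other, with 2 animals per genotype in each. WT livers 3 and 4 are also the WT livers of the 48 series, so other cell types and animal series cannot be told apart in the Hhex values. The part of either was not tested. The fit without WT livers 3 and 4 set WT livers of the 47 series against QKO livers of both. In heart Hhex was near its limit, at 0.559 ± 0.127 and 0.464 ± 0.0909 CPM (SD, n = 4).

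**Figure D1:**
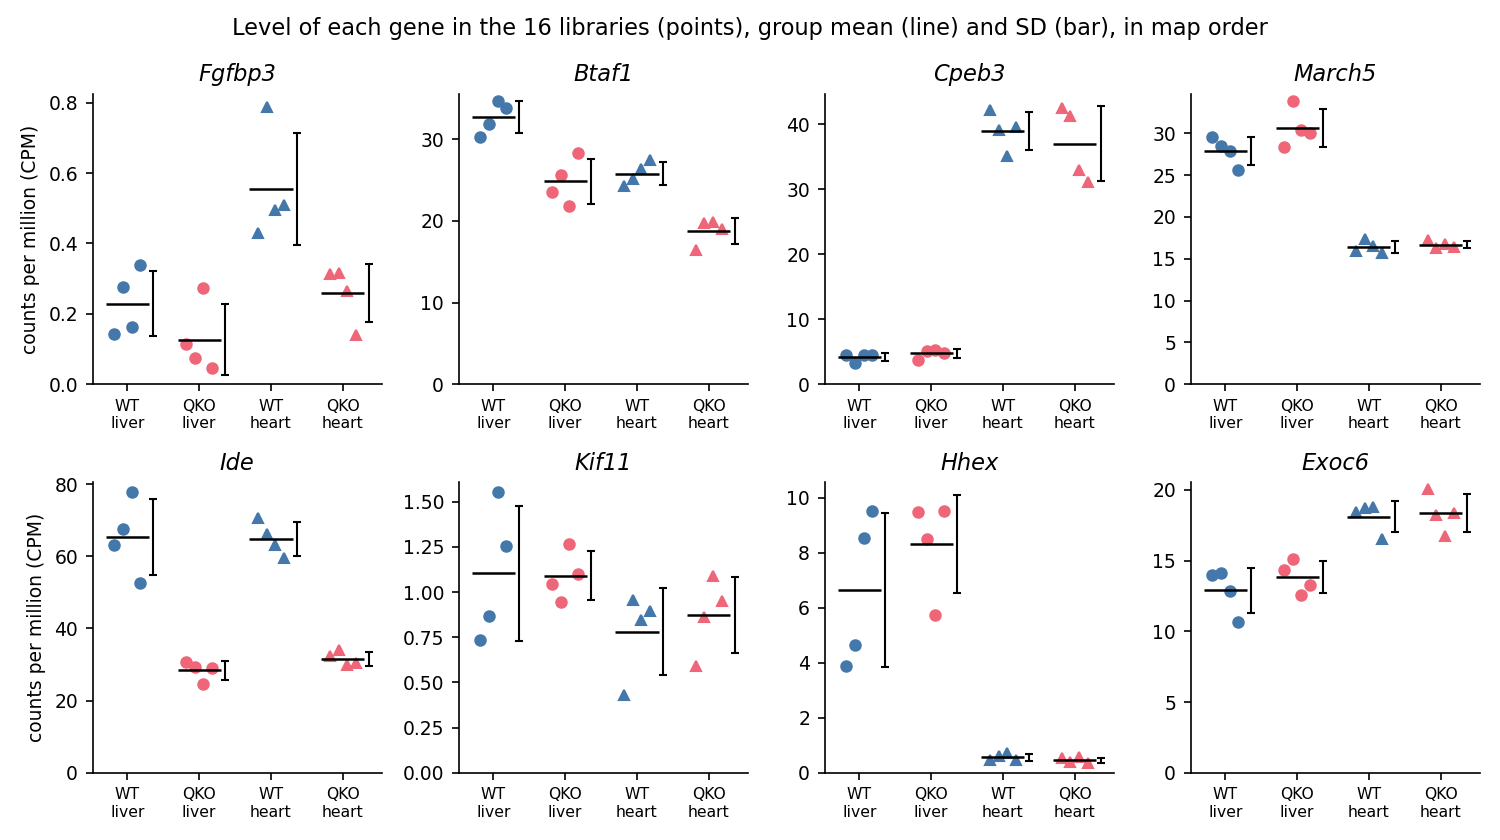
Level of each of the 8 genes in CPM (vertical axes from 0) in WT (blue) and QKO (red) libraries of liver (circles) and heart (triangles), with the group mean as a line and the SD as a bar. The red points of Ide and Btaf1 lie below all blue points of the same tissue, Fgfbp3 does so in heart, and the other 5 genes overlap.

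Read against the rest of the genome, all QKO libraries lay below all WT libraries for 2 of the 8 genes in liver (Btaf1 and Ide), where 1.07% of the 17738 genes tested did so. In heart this held for 3 of 8 (Fgfbp3, Btaf1 and Ide), against 2.37% of 16974 genes. At an adjusted p under 0.05 in edgeR's quasi-likelihood test (Benjamini-Hochberg over all genes tested), 1 of the 8 genes was called in liver (Ide) and 0.0846% of all genes. In heart 2 of 8 were called (Btaf1 and Ide) and 0.165% of all genes. The list was drawn around a gene with a known genotype difference, so these counts describe it and support nothing further. The heart call of Btaf1 was lost without WT heart 2, 3 or 4 and without QKO heart 2, 3 or 4. It was also lost without the heart libraries of number 4 together and in 1 fit of all 16 libraries. The log2 change of Btaf1 in heart stayed between -0.49 and -0.41. The median log2 change of the 8 genes was 0.03 in liver and -0.17 in heart, beside -0.01 and 0.00 for all genes tested.

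Ratios of counts within a library do not depend on library size or on ribosomal content. Ide had 2.34 ± 0.331 counts per March5 count (SD, n = 4, range 2.06 to 2.79) in WT liver and 0.929 ± 0.118 (0.810 to 1.08) in QKO liver. In heart the ratio was 3.95 ± 0.312 (3.78 to 4.42) in WT and 1.90 ± 0.135 (1.78 to 2.09) in QKO libraries. With Exoc6 as the denominator, Ide fell from 5.07 ± 0.677 to 2.05 ± 0.127 in liver and from 3.58 ± 0.194 to 1.73 ± 0.117 in heart. Both denominators overlapped between the genotypes in CPM, so these ratios describe the same gap in Ide and do not test it. Btaf1 had 1.18 ± 0.131 counts per March5 count in WT and 0.811 ± 0.0990 in QKO liver, and 1.57 ± 0.127 and 1.13 ± 0.116 in heart. Ide and Btaf1 did not move by the same factor, since Ide per Btaf1 was 2.00 ± 0.305 in WT and 1.15 ± 0.113 in QKO liver, and 2.53 ± 0.314 and 1.70 ± 0.196 in heart.

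**Figure D2:**
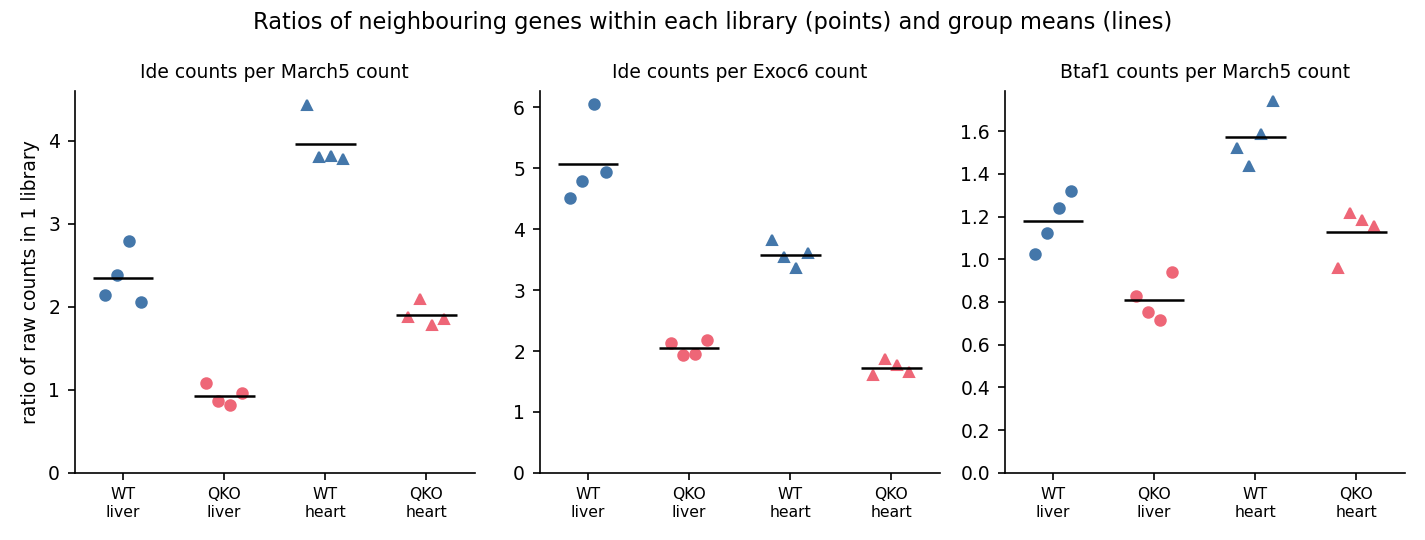
Ratio of raw counts of Ide to March5, Ide to Exoc6 and Btaf1 to March5 (vertical axes from 0) in each library of WT (blue) and QKO (red) liver (circles) and heart (triangles), with group means as lines. In each panel the 4 QKO libraries of a tissue lie below its 4 WT libraries.

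Values by series of animal numbers come from the animals on which Ide was chosen, so they describe its genotype difference and do not test it. Within the 47 series QKO livers held 45.7% and QKO hearts 48.4% of the WT level of Ide, and within the 48 series 41.1% and 49.1% (2 animals per genotype in each). For Btaf1 the shares were 79.0% and 73.4% in the 47 series and 73.3% and 72.2% in the 48 series. Leaving out the heart libraries of number 4, which had the least ribosomal RNA, left Ide with a log2 change of -1.05 and Btaf1 with -0.42 in heart. Btaf1 was not called in that fit. In bulk tissue, fewer cells of a type and less RNA per cell cannot be told apart.

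Beyond these genes, 7 other annotated genes lie inside the stretch, of which 3 passed the count filter in liver and 1 in heart. None was called by edgeR's quasi-likelihood test (0 at an unadjusted p under 0.05, and 0 by DESeq2). Rpl10-ps6, the pseudogene inside Ide, had a log2 change of -0.24 (SE 0.35) in liver, and A330032B11Rik, inside Cpeb3, 0.44 in liver (SE 0.36) and 0.23 in heart (SE 0.22). Of 25 further protein-coding genes within 2 Mb of Ide, 20 were tested in liver and 16 in heart, and 0 were called by edgeR in either (1 at an unadjusted p under 0.05 in each tissue, and 0 by DESeq2). Their log2 changes ran from -1.09 (Cep55) to 1.04 (Cyp26a1) in liver and from -1.11 (Rbp4) to 0.20 in heart, 3 genes named after their values were seen. Cep55 averaged 0.160 CPM over the livers and Rbp4, a hepatocyte product, 1.99 CPM over the hearts, so neither extreme in the lower direction came from a well expressed gene. Cyp26a1, the upper extreme in liver, was better expressed, at 16.6 CPM over the livers (SE of its log2 change 0.35), and was not called. For Tnks2, the nearest tested gene beyond Fgfbp3, the log2 value was 0.06 (SE 0.14) between the livers and -0.11 (SE 0.06) between the hearts, and Cyp26c1, the nearest beyond Exoc6, 0.23 (SE 0.41) in liver. On the whole of chromosome 19, edgeR called 1 gene of 585 in liver (Ide) and 2 of 561 in heart (Ide and Btaf1), and DESeq2 called 3 in each tissue. Over the whole genome edgeR called 0.0846% of genes tested in liver and 0.165% in heart, so the counts of 0 near Ide are a description.

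**Figure D3:**
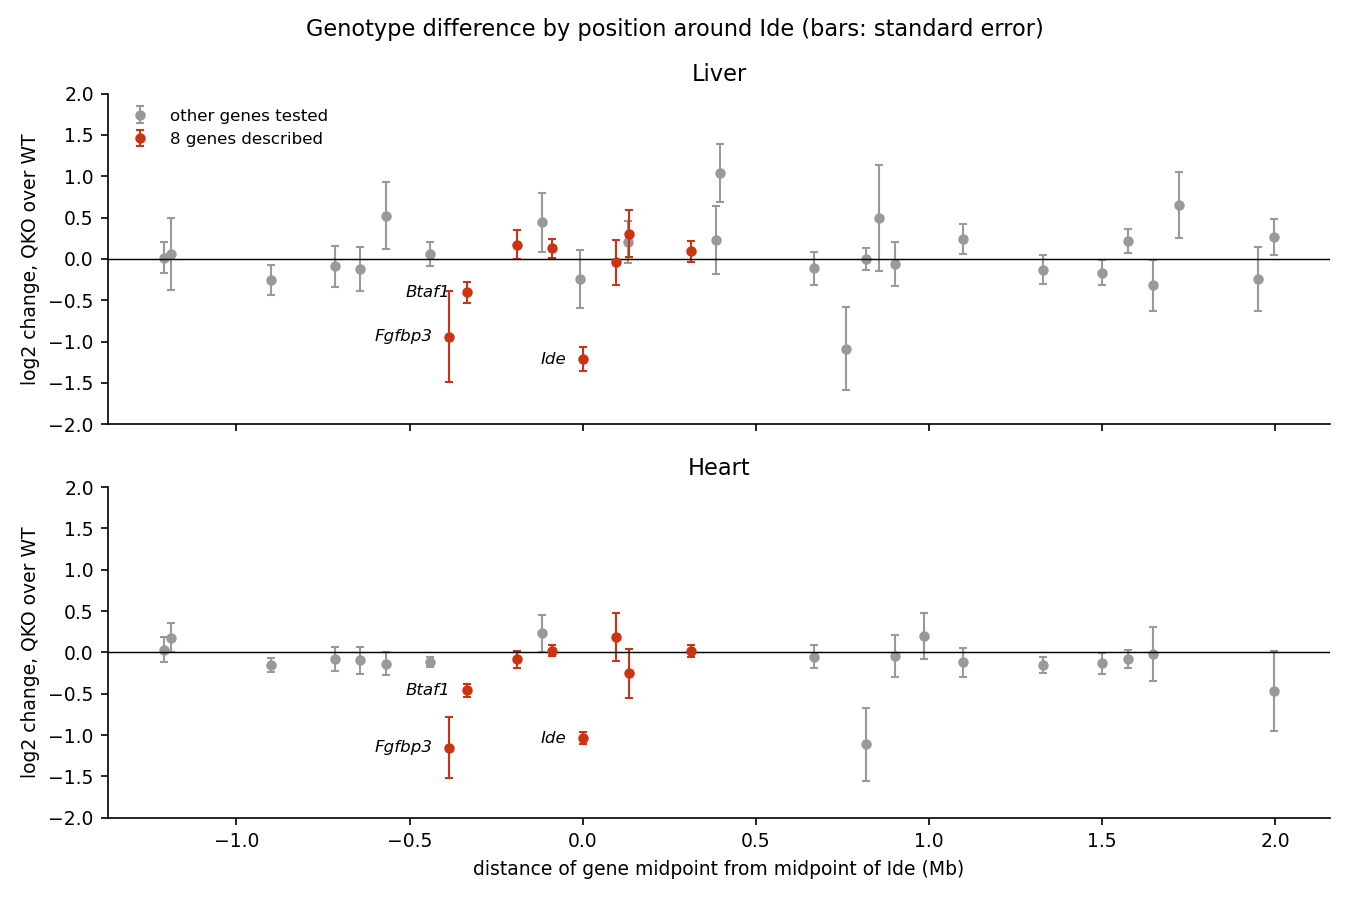
Log2 change of QKO over WT (vertical axis, bars are the standard error) by distance of the gene midpoint from that of Ide (horizontal axis, Mb) in liver and heart, for the 8 genes (red) and the other genes tested within 2 Mb (grey). Ide at -1.21 and -1.04, Btaf1 at -0.41 and -0.46 and Fgfbp3 at -0.94 and -1.15 lie below 0, while the red points between and beyond them lie between -0.25 and 0.31.

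The genotype differences were also compared between tissues in a fit of all 16 libraries. The list was chosen by position around Ide, and Ide was selected on its measured RNA difference between QKO and WT libraries. The comparison between tissues is built from the same genotype values. It is therefore not independent of the choice of Ide, and its value for Ide is a description. The effect in heart minus that in liver was 0.17 for Ide (log2, SE 0.17, 95% interval -0.18 to 0.52), -0.06 for Btaf1 (SE 0.14, -0.36 to 0.23) and -0.19 for Fgfbp3 (SE 0.70, -1.67 to 1.28). The interval of Fgfbp3 left room for a large difference in either direction. For Hhex it was -0.57 (SE 0.43, -1.48 to 0.34), and for the other 4 genes -0.26 to 0.21. None of the 8 passed, with an adjusted p of 1.00 for each in edgeR's quasi-likelihood test (0 of 8 at an unadjusted p under 0.05, 0 of 8 by DESeq2, and 0.00511% of 19587 genes called). The signs for Fgfbp3, Btaf1, Kif11 and Exoc6 turned under at least 1 other setting. The heart call of Btaf1 and the missing liver call are therefore not shown to differ.

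Levels of different genes were compared per length of exon, where March5 and Ide led in WT tissues. On this scale the order in WT liver was March5 (11.6 RPKM, which is CPM per kb of exon), Ide (8.70), Exoc6 (3.64), Btaf1 (3.18), Hhex (1.31), Cpeb3 (0.563), Kif11 (0.148) and Fgfbp3 (0.129). Exoc6 and Btaf1 lay within their spread of each other there (SD 0.451 and 0.190), as did Kif11 and Fgfbp3 (SD 0.0499 and 0.0523). In WT heart Ide led with 8.64 RPKM, followed by March5 (6.82), Cpeb3 (5.26), Exoc6 (5.11), Btaf1 (2.51), Fgfbp3 (0.314), Hhex (0.111) and Kif11 (0.105). Cpeb3 and Exoc6 (SD 0.396 and 0.308) and Hhex and Kif11 (SD 0.0250 and 0.0320) did not differ beyond their spread in heart. In QKO libraries Ide stood at 3.78 RPKM in liver and 4.21 in heart, beside Exoc6 at 3.91 and 5.18. Between WT and QKO liver March5 went from 11.6 to 12.7 RPKM, so the order of Ide and March5 was the same in both, and in heart it turned, with March5 at 6.92 RPKM in QKO libraries.

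Cpeb3 had the largest rise from liver to heart among the 8 genes. Its libraries ran from 3.25 to 4.52 CPM in WT liver and from 35.0 to 42.1 in WT heart, and from 3.79 to 5.31 and 31.0 to 42.5 in QKO tissues. The log2 change of heart over liver was 3.24 (SE 0.14, adjusted p = 5.531e-09 in edgeR's quasi-likelihood test) in WT and 3.00 (SE 0.15, adjusted p = 1.235e-09) in QKO animals. Hhex had the largest fall, from 3.87 to 9.52 CPM in WT livers to 0.453 to 0.707 in WT hearts. Its log2 change was -3.61 (SE 0.34, adjusted p = 2.535e-06) in WT and -4.17 (SE 0.23, adjusted p = 2.826e-09) in QKO animals. No heart library reached a liver library of the same genotype, and the fold of liver over heart was 11.9 in WT and 17.9 in QKO means.

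March5 was lower in heart in both genotypes (log2 -0.75, SE 0.09, adjusted p = 2.554e-05 in WT and -0.85, SE 0.10, adjusted p = 3.854e-06 in QKO), in 8 of 8 animals. Exoc6 was higher in heart in both (0.50, SE 0.11, adjusted p = 0.00220 and 0.44, SE 0.10, adjusted p = 0.00188), also in 8 of 8 animals. Fgfbp3 was higher in WT heart (1.24, SE 0.36, adjusted p = 0.00969), and in QKO animals it had 1.08 (SE 0.54, adjusted p = 0.0900), or 1.22 with an adjusted p of 0.0461 with the animal as a block. It was also called there with upper quartile scaling (1.27), with library sizes taken without the 20 most abundant genes (1.53) and without QKO liver 3 (1.64). Btaf1 was lower in heart (-0.33, SE 0.10, adjusted p = 0.00922 in WT and -0.37, SE 0.11, adjusted p = 0.00969 in QKO), but with library sizes taken without the 20 most abundant genes the sign turned to 0.17 and 0.08. Upper quartile scaling ended both calls of Btaf1, at -0.14 (adjusted p = 0.200) in WT and -0.18 (adjusted p = 0.169) in QKO, and moved the median of all genes to 0.16 and 0.20. The scaling without the 20 most abundant genes moved the median of all genes tested from -0.02 to 0.48 in WT and from 0.01 to 0.46 in QKO, so relative to all genes Btaf1 stayed lower in heart. Kif11 had -0.50 (SE 0.32, adjusted p = 0.182) and -0.26 (SE 0.24, adjusted p = 0.330), with libraries that overlapped in both genotypes.

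Ide had the same mean level in WT liver and WT heart. The log2 change of heart over liver was 0.00 (SE 0.14, 95% interval -0.31 to 0.31, adjusted p = 0.996 in edgeR's quasi-likelihood test), and heart was higher in 2 of 4 animals. In QKO animals it was 0.19 (SE 0.10, -0.04 to 0.41, adjusted p = 0.117), with heart higher in 4 of 4 animals. It was called in QKO animals with upper quartile scaling (0.38, adjusted p = 0.00553) and with a filter of 1 CPM in 4 libraries (0.28, adjusted p = 0.0296). The intervals bound the tissue difference of Ide and do not show that it is absent. With library sizes taken without the 20 most abundant genes Ide had 0.49 in WT and 0.64 in QKO animals, beside the all-gene medians of 0.48 and 0.46. In all, 6 of the 8 genes were called between the tissues in WT (3 higher and 3 lower in heart, against 72.5% of 18204 genes) and 5 of 8 in QKO animals (2 higher and 3 lower, against 74.3% of 18039). With library sizes taken without the 20 most abundant genes the split was 4 higher and 2 lower in both genotypes, as Ide and, in QKO animals, Fgfbp3 were then called and Btaf1 was not. The shares called are near those of all genes.

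**Figure D4:**
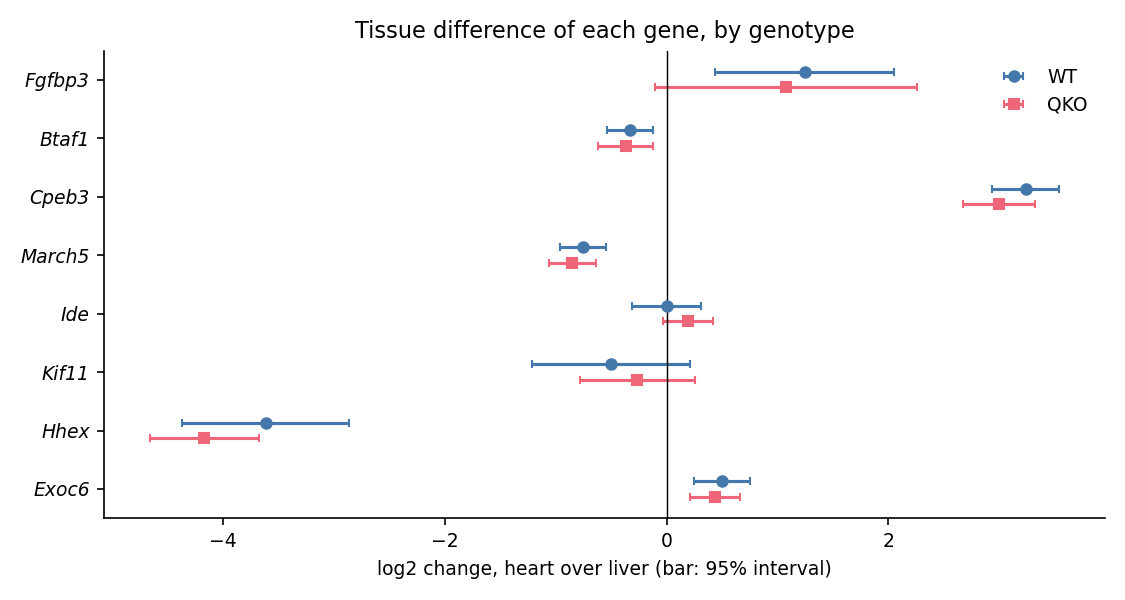
Log2 change of heart over liver (horizontal axis, bars are 95% intervals) for the 8 genes in WT (blue circles) and QKO (red squares) animals, in map order. Cpeb3 lies at 3.24 and 3.00, Hhex at -3.61 and -4.17, and Ide at 0.00 and 0.19 with both intervals across 0.

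Genes with related roles, in 10 lists, were read beside the 8 genes. Between the genotypes 0 of 71 list genes tested in liver and 0 of 68 in heart were called by edgeR's quasi-likelihood test. DESeq2 called 0 in both. Of all genes tested, edgeR called 0.0846% in liver and 0.165% in heart, so 0 calls describe the lists and support nothing further. At an unadjusted p under 0.05 there were 1 and 6 list genes, beside 583 of 17738 and 1220 of 16974 genes tested. The other M16 peptidases had a median log2 change of -0.02 in liver and 0.03 in heart, and the most abundant of them, Uqcrc1 of respiratory complex III, 0.15 (SE 0.15) and 0.15 (SE 0.07). Of the genes of insulin uptake and signalling, the insulin receptor gene Insr had 0.06 (SE 0.14) and -0.03 (SE 0.07), and Igf2r, which carries lysosomal enzymes, 0.00 (SE 0.17) and 0.05 (SE 0.07). Among other peptidases that cut amyloid peptides, Ctsb, a lysosomal protease, had 0.08 (SE 0.15) and 0.02 (SE 0.08). The TBP partners of Btaf1 had medians of 0.11 in liver and -0.08 in heart. Drap1, the most abundant of them, had 0.31 (SE 0.19) and 0.30 (SE 0.07), and Tbp itself 0.09 (SE 0.14) and -0.11 (SE 0.09). In heart 2 of the 8 partners had an unadjusted p under 0.05 in edgeR's quasi-likelihood test, Drap1 upward and Gtf2a1 (-0.22, SE 0.09) downward.

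Between the tissues in WT animals, 37 of the 72 list genes tested were higher in heart and 19 lower, and in QKO animals 33 and 20 of 70. As 72.5% and 74.3% of all genes tested were called between the tissues, the lists' shares are near those of all genes, and the list counts that follow are descriptions. With library sizes taken without the 20 most abundant genes these became 45 and 13 in WT and 45 and 16 in QKO. All 3 other CPEB genes rose in heart with Cpeb3, in WT and in QKO animals and under each of the 4 scalings tried. In WT their log2 changes were 2.19 for Cpeb1, 1.46 for Cpeb4 and 1.21 for Cpeb2 (adjusted p = 1.260e-04 or lower). Of the M16 peptidases, 5 of 6 were higher in heart in both genotypes (4 of 6 by DESeq2 in WT), among them Nrd1, the nardilysin gene (1.53, SE 0.10), and Uqcrc2 (1.15, SE 0.14), whereas Ide had 0.00. Of the exocyst genes 5 of 8 were higher and 0 lower in both genotypes, with Exoc6b, the paralog of Exoc6, at 1.38 (SE 0.16) and Exoc3 at 0.95 (SE 0.13) in WT. Beside March5, which was lower in heart, 5 of 8 genes of mitochondrial fusion and fission were higher, among them the fusion genes Mfn2 (3.24, SE 0.20) and Opa1 (1.12, SE 0.16), and Fis1 was lower (-0.71, SE 0.13), a call lost when library sizes left out the 20 most abundant genes. Of the regulators listed with Hhex, 5 of 8 were lower in heart in WT (4 of 8 with upper quartile scaling or without the 20 most abundant genes), led by the hepatocyte factors Hnf4a (-7.56, SE 0.40) and Foxa2 (-6.77, SE 0.51), and 2, the cardiac factors Gata4 (2.49, SE 0.18) and Gata6 (2.95, SE 0.13), were higher. The FGF partners of Fgfbp3 split, with Fgfr1 higher in heart (2.47, SE 0.15) and Fgfr4 (-6.68, SE 0.35) and Fgfr2 (-4.32, SE 0.15) lower. Of the genes of insulin uptake and signalling 5 of 8 were higher, among them Igf1r (2.97, SE 0.17) and Insr (0.79, SE 0.12), and 2 lower, among them Ceacam1 (-2.52, SE 0.15), which takes part in insulin uptake by hepatocytes. The amyloid peptidases split into 3 higher and 4 lower of 7 under each of the 4 scalings, the TBP partners of Btaf1 into 4 higher and 3 lower of 8 (5 and 0 without the 20 most abundant genes), and of 9 mitotic genes tested beside Kif11 1 was higher and 1 lower.

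Genes whose libraries followed Ide most closely were sought over all 16 libraries, after removal of each gene's own tissue mean. The measure was the root mean square difference in log2 CPM, for which the median over 15435 genes was 0.628, and the genotype difference enters it. The 5 genes nearest to Ide were Fndc3a (0.225), Msra (0.283), Gm37472 (0.306), Gm37940 (0.319) and Mir686 (0.319). Fndc3a, Msra, Gm37472 and Mir686 lie on chromosome 14, that of the targeted Msra, and Gm37940 on chromosome 6. Btaf1 was the nearest of the listed neighbours, at rank 19 (0.381), followed by Exoc6 at rank 5527 (0.600). A gene flat within each tissue would differ from Ide by 0.574, the root mean square of Ide around its tissue means. Exoc6 and the listed genes ranked after it lay beyond that value, so their ranks show no likeness to Ide. Fgfbp3 stood at rank 7097 (0.620), with its low counts. Fndc3a had log2 changes of QKO over WT of -0.93 in livers and -0.58 in hearts, and Msra -0.72 and -0.52, so Ide had the larger change of the 3 in both tissues.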

How the data were processed

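Read counts per gene from 16 libraries (liver and heart of 4 WT and 4 QKO mice) were analysed. Libraries were stranded, from ribosomal-depleted RNA, and read as 75 bp pairs, per the labels. Without versions, the submitters' processing notes list HISAT2, featureCounts, cutadapt, FastQC, limma, CASAVA and bcl2fastq, with build mm10. The authors deposited raw counts for 48709 Ensembl identifiers; annotation release and strand setting are not given in the sources used here. Symbols and positions came from GENCODE M21 on GRCm38, where 48349 identifiers matched without version.

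Each comparison was fitted over all genes that passed edgeR's filter by group, by edgeR 4.0.16 (quasi-likelihood F test, R 4.3.3), with TMM scaling and Benjamini-Hochberg adjustment at 0.05. The tests within a tissue or genotype used 8 libraries, and the difference between tissues in the genotype effect used 16. SE is the log2 change divided by the square root of F. In the tests within a tissue, P-values measure the spread between animals. In the other comparisons they measure the spread between libraries, as the main fits did not pair the liver and heart of an animal. DESeq2 1.42.0 was an alternative, beside other scalings and filters, blocks and left-out libraries. The code was tested on simulated data. CPM used TMM over 16 libraries, and RPKM divided it by the GENCODE exon length. Among 24 replicate pairs the lowest chi-square per gene was 26.3, so none were copies. Counting error limits Fgfbp3 most.

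The members and lists were chosen with earlier results of these data known. Named genes were the 8 members, the nearest tested genes outside, the Msr genes, the 5 genes most like Ide and list members past the threshold or of highest CPM.

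Liver and heart of an animal are paired by the labels, and their deviations from the group means correlated at 0.137 to 0.255 in WT and 0.0627 to 0.219 in QKO over 5000 genes. Libraries of the same number in WT and QKO came from different animals, which the labels do not pair. They correlated at 0.197 to 0.657 in heart and at -0.243 to 0.212 in liver. The highest value in heart was that of number 4, the hearts with the least ribosomal RNA. The main heart fit left the number out, and the block by number was an alternative.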

Additional observations from a re-analysis of the deposited data

Results flagged for a closer look

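Among 32 sets of 4 libraries (8 genes in 4 groups), 2 had a library far from the other 3, where chance alone flags about 1 in 20. Cpeb3 had 3.25 CPM in WT liver 2, and its other WT livers had 4.44 to 4.52. Exoc6 had 16.5 CPM in WT heart 4, where its other WT hearts had 18.4 to 18.8, and this library also had the least ribosomal RNA of the WT hearts (7.37%).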

How the results depend on the processing

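The genotype values of Ide, which was chosen on this contrast, are a description: its log2 change was -1.30 to -1.11 in liver and -1.08 to -0.99 in heart with single libraries left out. The count of the 8 genes called in heart was 2 and became 1 in a single fit of 16 libraries and 1 without the heart libraries of number 4, and ran from 1 to 2 with single libraries left out. The counts in liver (1), between tissues (6 in WT, 5 in QKO) and for the difference between tissues (0) stayed within 1.5 times. With the replicate block, paired by number or animal, Fgfbp3 was called between QKO tissues (1.22, adjusted p = 0.0461), and no other of the 8 genes changed its call. Over all genes the heart count went from 28 to 50 with the block, 64 with DESeq2, 102 with no filter and 16 in a single fit of 16 libraries, and the liver count from 15 to 50 with DESeq2 and 44 in the single fit.

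Library sizes without the 20 most abundant genes turned Btaf1 between tissues to 0.17 in WT and 0.081 in QKO, Kif11 in QKO to 0.19 and the Btaf1 effect in heart minus liver to 0.016, and raised the share of higher calls between tissues from 49.1% to 66.1% in WT. Ide between WT tissues changed sign around 0 (-0.0022 with RLE scaling, -0.029 with no filter, -0.0026 with DESeq2, -0.018 without WT livers 3 and 4, and -0.099 to 0.087 with single libraries left out). The effect in heart minus liver turned to 0.017 for Fgfbp3 without the heart libraries of number 4 (-0.48 to 0.40 with single libraries left out), and to -0.24 for Kif11 and 0.043 for Exoc6 without WT livers 3 and 4. With single libraries left out it was -0.11 to 0.014 for Btaf1 and -0.13 to 0.0024 for Exoc6. The cause was not tested. Depth limits Fgfbp3 and heart Hhex most.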
